A study of Mus musculus with 12 samples.

Results

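The genes described here are 10 genes of MHC class I antigen presentation and of the proteasome, out of 561 genes counted in mouse splenic erythroid cells. The choice is a list of gene names that uses no measured value, though earlier results of these data were known when it was drawn up: H2-K1, B2m, Tap1, Tapbp, Psmb5, Psmb7, Psmb9, Psmc2, Psmd7 and Cd1d1. RNA was counted with the NanoString nCounter Mouse Immunology v1 panel, in which barcoded probes are counted on RNA molecules without amplification. All mice were male F1 adults of CBA and C57BL/6 parents, 3 to 5 months old, and spleens were taken on day 3. Normal mice were kept under standard conditions. Blood loss mice had 0.5 to 0.8 mL drawn from the retro-orbital sinus under isoflurane, which the labels state for this group alone. Hypoxia mice spent 16 h in a hypobaric chamber at -46 kPa, matching an altitude above 4500 m. Magnetic selection used Ter-119, an antigen found on erythroid cells, which enriches them but does not make the sample pure. Each sample was RNA of 500000 cells.

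Groups held 3 normal, 4 blood loss and 4 hypoxia samples. Normal 4 was left out of the main fit. Each of its 561 raw counts is the median of normal 1, 2 and 3 plus 3. Only the setting named 12 samples adds it. Nothing in the labels ties samples to separate animals, and p-values therefore reflect a sample-to-sample spread that could be technical. Total counts were 43956 to 253712 in normal samples, 7016 to 31006 after blood loss and 44254 to 81370 after hypoxia. At a raw count of 20 or more stood 9 or 10 of the 10 genes in each normal and hypoxia sample, and 6, 7, 2 and 9 of them in blood loss samples 1 to 4. All 10 genes passed the filter for testing, a raw count of 20 or more in at least 4 samples. Of 11 listed erythroid markers 4 had values here (Tfrc, Tal1, Kit and Cd55), and Kit was under 20 in every sample, so the erythroid label could be checked only in part. Their summed level was 332 to 607 in the normal group, 405 to 719 after blood loss and 315 to 929 after hypoxia. That sum holds markers called in opposite directions against normal: Tfrc, the transferrin receptor (1.61 after blood loss and 1.28 after hypoxia on the log2 scale), and Tal1, a factor of early blood development (3.82 and 3.40), rose in both, and Cd55, a complement regulator (-1.13 and -1.11), fell in both.

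MHC class I molecules show short peptides from inside the cell to CD8 T cells and to receptors of natural killer cells. The peptides are cut by the proteasome, carried into the endoplasmic reticulum by a transporter and loaded there onto a heavy chain that is held together with beta-2 microglobulin. H2-K1 encodes a classical heavy chain, B2m the light chain, Tap1 a subunit of the transporter and Tapbp tapasin, which bridges transporter and heavy chain. Psmb5 and Psmb7 encode catalytic subunits of the constitutive proteasome, and Psmb9 a subunit that interferon induces for the immunoproteasome. Psmc2 encodes an ATPase and Psmd7 a lid subunit of the regulatory particle that feeds proteins into the proteasome. Cd1d1 encodes a class I-like molecule that pairs with B2m and shows lipids to NKT cells. Maturing mammalian red cells lose their organelles and, in the end, their nucleus.

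Of the 10 genes, H2-K1 was called lower in both treatments, and Cd1d1 and Tap1 after hypoxia. The hypoxia call of Cd1d1 held under all 5 other scalings, that of H2-K1 under 2 and that of Tap1 under 0. None of the 10 was called higher at the scaling used here. Psmb7 and Psmc2 were called higher after hypoxia under 3 of the 5 other scalings, and B2m in both treatments without normal 1. Of all 252 tested genes, 17.1% were called lower and 9.92% higher after blood loss, and 32.9% lower and 7.54% higher after hypoxia. That split depends on the scaling: after hypoxia 83 genes were called lower and 19 higher here, whereas TMM gave 44 and 55. Median-of-ratios factors from tested genes gave 51 and 49. The authors' size factor method, recomputed on the 11 samples and named the deposited size factors below, gave 50 and 51. B2m, the partner chain of both H2-K1 and Cd1d1, was not called in any comparison, and its coefficient of variation over the normal samples was 91.7%, against 11.7% to 42.2% for the other 9 genes. Of the 5 proteasome genes none was called. Levels below are housekeeping-scaled counts, that is raw counts divided by a library factor from 6 housekeeping genes. A gene was called where the adjusted p of edgeR's quasi-likelihood test, fitted on 252 genes, was under 0.05. Probes of different genes differ in efficiency, so levels are compared between samples and not between genes. In these bulk samples fewer cells of a type and less RNA per cell cannot be told apart.

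**Figure D1:**
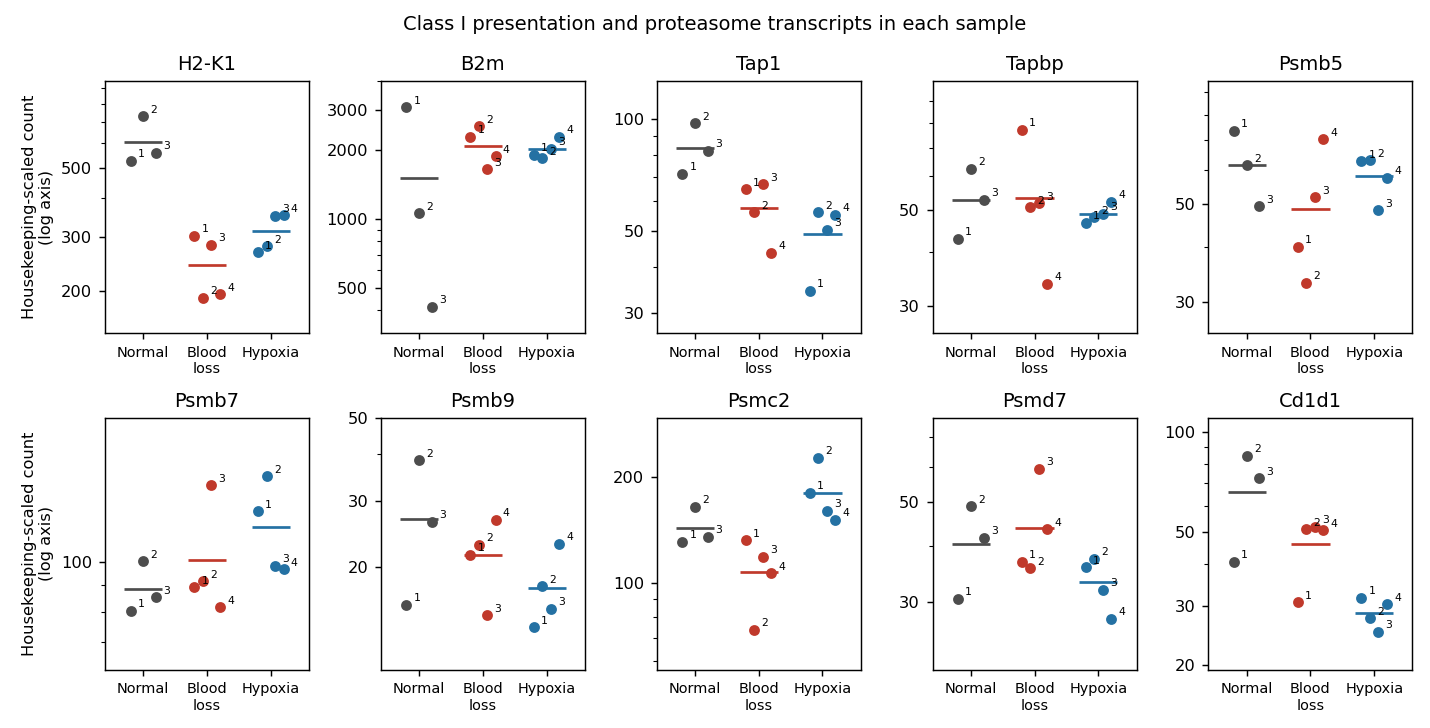
Housekeeping-scaled counts of the 10 genes (y axis, log scale, 1 panel per gene) in each of the 11 samples, numbered by replicate and grouped on the x axis, with lines at the group means. H2-K1 lies lower in all 8 treated samples than in the 3 normal samples, Cd1d1 lies lower in the 4 hypoxia samples, and the normal samples of B2m run from 414 to 3086.

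H2-K1, the heavy chain, was at 526, 730.4 and 558 in normal samples 1, 2 and 3. It was at 301, 191, 282 and 195 after blood loss, and at 267, 279, 349 and 351 after hypoxia. Every treated sample lay below every normal sample. After blood loss the mean was 242 ± 57.4 (SD, n = 4) against 605 ± 110.2 (SD, n = 3), which is 2.52-fold lower (log2 fold change -1.34, SE 0.28, edgeR adjusted p = 0.00112). After hypoxia it was 312 ± 44.8 (SD, n = 4), which is 1.94-fold lower (log2 fold change -0.96, SE 0.27, edgeR adjusted p = 0.0067). The hypoxia and blood loss samples overlapped, and their difference of 0.38 on the log2 scale (approximate 95% interval -0.14 to 0.90) was not called. The call after blood loss held with each sample left out in turn and under 13 other settings. Among these was a fit of only the 2 groups compared. The 13 include a fit that adds the derived normal 4, which is no further support. The call after hypoxia was lost under 3 other scalings, where the log2 fold change was -0.44 to -0.51, and without normal 2 (-0.80). With normal 1 as the only normal sample, a setting chosen after the values were seen, the log2 fold changes were -1.14 and -0.75. The fit then assumes that the lone sample varies like the treated groups, so calls with it are not read. Mice carry several class I heavy chain genes of near-identical sequence, these F1 mice carry 2 parental haplotypes, and the labels do not say which of them the probe binds.

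B2m stood at 3086, 1061 and 414 in normal samples 1, 2 and 3. After blood loss it was at 2294, 2548, 1654 and 1885, and after hypoxia at 1908, 1842, 2027 and 2291. All 8 treated samples lay between normal 2 and normal 1, so neither treated group could be placed above or below the normal group. The log2 fold change was 0.47 after blood loss (approximate 95% interval -0.53 to 1.47, edgeR adjusted p = 0.496) and 0.41 after hypoxia (-0.58 to 1.41, adjusted p = 0.529). Without normal 1 both values were called higher, at 1.51 (edgeR adjusted p = 0.00276) and 1.45 (adjusted p = 0.00232), so the call turned on that sample. With normal 1 alone the signs turned, to -0.56 and -0.61.

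The spread of B2m in the normal samples was also seen in raw counts, which no scaling touches. Among 203 tested genes that reached 20 raw counts in normal 1, the median gene had 5.02 times the count of normal 1 in normal 2 and 7.88 times in normal 3. H2-K1 stood near these medians, at 5.1 and 7.42 times, and Cd1d1 at 7.64 and 12.4 times. B2m stood at 1.26 and 0.938 times. Only 3 other genes of the 203 had a ratio of normal 3 to normal 1 at or below that of B2m, and all 3 are class II genes: H2-Ab1 (0.737), H2-Aa (0.887) and Cd74 (0.906), the invariant chain. These genes were picked out after their values were seen. The 203 hold no housekeeping gene. Rpl19, a gene of the library factor, was also highest in normal 1, at scaled counts of 2286, 450 and 1022. The reason for this split between the normal samples was not tested.

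**Figure D2:**
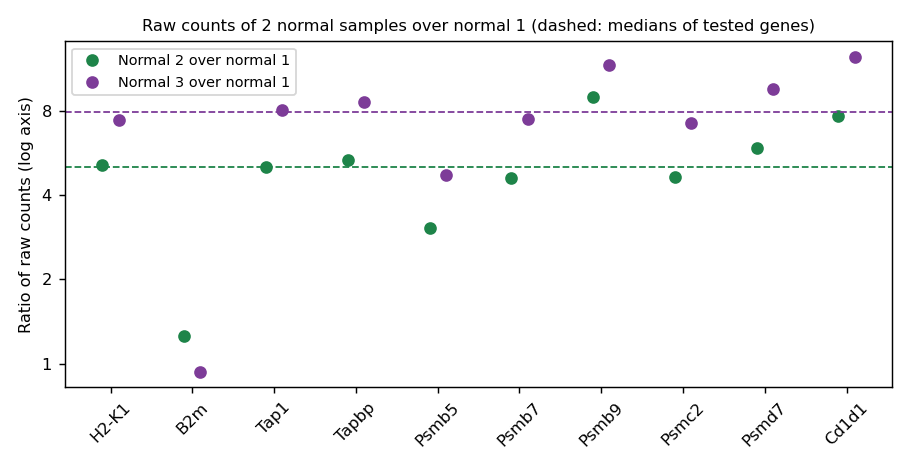
Raw counts of normal 2 and normal 3 divided by those of normal 1 (y axis, log scale) for each of the 10 genes (x axis), with dashed lines at the medians of 203 tested genes. The medians are 5.02 and 7.88, and B2m stands far below both lines, at 1.26 and 0.938.

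Promoter sequence is shown for Tap1, called lower after hypoxia at the main scaling, and for B2m, which was not called. Interferon is a textbook inducer of both. Shown are the 250 bases before the RefSeq start of each, in build GRCm38.p6, 5' to 3' on the strand of the gene. Capitals mark a CCAAT box (CCAAT, or ATTGG on the other strand) or the letters of an interferon-stimulated response element (ISRE, searched on both strands as GAAA, any 2 bases and GAAA again). These motifs do not overlap each other in the windows shown.
B2m, plus strand, chr2:122147437-122147686: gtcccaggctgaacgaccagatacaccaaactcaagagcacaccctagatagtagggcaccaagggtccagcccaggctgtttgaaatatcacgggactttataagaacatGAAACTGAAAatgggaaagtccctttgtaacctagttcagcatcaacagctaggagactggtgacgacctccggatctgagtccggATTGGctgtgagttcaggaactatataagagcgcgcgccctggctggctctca
Tap1, plus strand, chr17:34187306-34187555: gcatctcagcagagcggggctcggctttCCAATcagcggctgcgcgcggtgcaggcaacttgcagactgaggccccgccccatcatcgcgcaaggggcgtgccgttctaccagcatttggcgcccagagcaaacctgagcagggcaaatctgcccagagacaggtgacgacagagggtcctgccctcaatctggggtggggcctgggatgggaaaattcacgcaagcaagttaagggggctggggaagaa
The Tap1 window also serves Psmb9: the 2 genes are read away from each other on chromosome 17 with 225 bases between their starts, and the first 25 bases of the Tap1 window lie inside Psmb9. Windows of 7 of the 10 genes matched. For these the most upstream start with a window was taken, whereas all 32851 RefSeq windows were counted without such a choice. The shares compared here therefore come from unlike sets of windows. The ISRE letters stood in 1 of 7 windows (B2m), against 2.98% of all 32851 RefSeq windows. A CCAAT box stood in 6 of 7, against 33.8% of all windows. Those of Tap1 and Psmb9 are 1 shared site, and the H2-K1 window lies inside the annotated span of its gene. GATAA, the core bound by GATA factors, or its complement TTATC in 2 of 7, against 22.6%, and TTCNNNGAA in 0 of 7, against 7.02%. A match describes letters and no binding was measured.

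Cd1d1, the lipid-presenting partner of B2m, was at 40.7, 84.8 and 72.4 in normal samples 1, 2 and 3. It was at 30.8, 50.9, 51.9 and 50.6 after blood loss and at 31.7, 27.5, 25.1 and 30.4 after hypoxia. All 4 hypoxia samples lay below the lowest normal sample, and normal 1 was the lowest of the normal samples, below 3 of the 4 blood loss samples. Raw counts after blood loss were 10, 20, 7 and 36. After hypoxia the mean was 28.7 ± 2.95 (SD, n = 4) against 66.0 ± 22.7 (SD, n = 3), which is 2.34-fold lower (log2 fold change -1.23, SE 0.28, edgeR adjusted p = 0.00122). After blood loss the log2 fold change was -0.55 (approximate 95% interval -1.15 to 0.06), which was not called, though it was without normal 1 (-0.77, edgeR adjusted p = 0.0415). The hypoxia call held in each of 13 other settings, among them a fit of only the 2 groups compared. The 13 include the fit with the derived normal 4 added, which is no further support. The hypoxia call also held with each sample left out in turn. With normal 1 as the only normal sample the value was -0.50. Mice carry a close copy of the gene, Cd1d2, and the labels do not say which of the 2 the probe binds.

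The transporter gene Tap1 was at 71.2, 97.4 and 82.1 in normal samples 1, 2 and 3. It was at 64.6, 56.0, 66.7 and 43.6 after blood loss and at 34.5, 56.1, 50.2 and 55.1 after hypoxia. Neither treated group overlapped the normal samples. Tap1 fell after hypoxia by 0.78 on the log2 scale (SE 0.28, edgeR adjusted p = 0.0263, 1.72-fold). The hypoxia call was lost under all 5 other scalings (-0.26 to -0.63), after thinning to the shallowest total (-0.78), and without normal 2, normal 3, hypoxia 1 or hypoxia 3. After blood loss the value was -0.59 (approximate 95% interval -1.20 to 0.01, adjusted p = 0.145). Tapbp was at 42.9, 62.6 and 52.9 in normal samples, at 33.7 to 76.9 after blood loss and at 46.9 to 52.3 after hypoxia, and these ranges overlapped.

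A ratio of 2 genes within a sample needs no library factor. The raw count of Tap1 over that of Tapbp was 1.66, 1.56 and 1.55 in normal samples 1, 2 and 3. It was 0.84, 1.1, 1.29 and 1.29 after blood loss and 0.735, 1.16, 1.02 and 1.05 after hypoxia. The 3 normal samples lay above all 8 treated samples. The differences were -0.51 and -0.70 on the log2 scale, each with an exact two-sided permutation p of 0.0571, the smallest that 3 against 4 samples allow, and 0.3 after adjustment over the 21 ratio tests made.

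**Figure D3:**
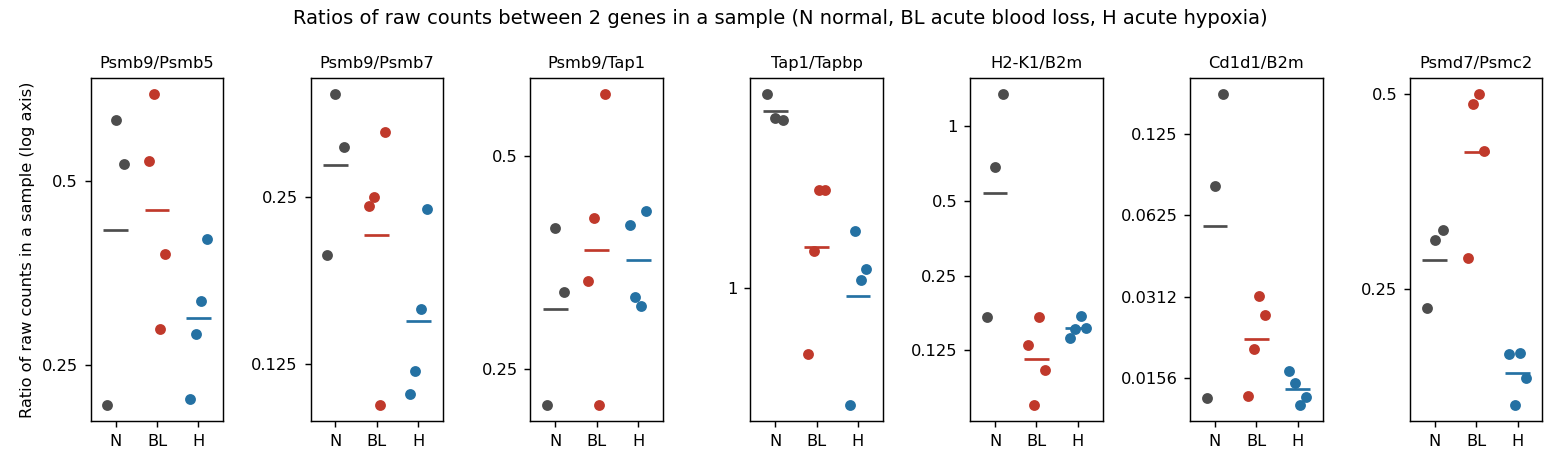
Ratios of raw counts between 2 genes within a sample (y axis, log scale) for 7 gene pairs in the 11 samples, by group on the x axis, with lines at the means of the log ratios. The Tap1 to Tapbp ratio is 1.55 to 1.66 in normal samples and at most 1.29 in treated ones, and the Psmd7 to Psmc2 ratio is lowest in the 4 hypoxia samples.

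The ratio of H2-K1 to B2m was 0.17, 0.688 and 1.35 in normal samples 1, 2 and 3. It lay between 0.0749 and 0.17 after blood loss and between 0.14 and 0.172 after hypoxia. Normal 1 fell in the range of the treated samples, and normal 2 and normal 3 lay above it. The log2 differences were -2.23 and -1.81 (exact two-sided permutation p = 0.114 for each, 0.3 after adjustment).

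The catalytic proteasome genes gave no call. Psmb5 was at 73.5, 61.3 and 49.5 in normal samples, at 33.1 to 70.3 after blood loss and at 48.5 to 63.0 after hypoxia. Psmb7 was at 80.2, 100.2 and 85.4 in normal samples, at 81.5 to 140.9 after blood loss and at 96.8 to 146.6 after hypoxia. The groups of both genes overlapped, and Psmb7 was called higher after hypoxia under 3 other scalings (0.83 to 0.92 on the log2 scale). The immunoproteasome gene Psmb9 had raw counts of 14, 125 and 163 in normal samples, 7, 9, 2 and 19 after blood loss and 20, 18, 27 and 41 after hypoxia. Genes under 20 in all samples had median raw counts of 1, 3, 1 and 5 in the 4 blood loss samples. Its log2 fold change after blood loss was -0.28 (approximate 95% interval -0.98 to 0.42), which was not called. After hypoxia it was -0.67 (approximate 95% interval -1.27 to -0.07, edgeR adjusted p = 0.0819). Psmb9 was called lower without normal 1 (-0.87, edgeR adjusted p = 0.014) and without hypoxia 4 (-0.85, adjusted p = 0.0411). The fit of 12 samples also called it (-0.79, edgeR adjusted p = 0.017). That fit counts the derived normal 4 as a replicate, so its call is no further support. The Psmb9 to Psmb7 ratio was 0.197, 0.385 and 0.309 in normal samples and 0.11 to 0.238 after hypoxia, with overlap (exact two-sided permutation p = 0.114, 0.3 after adjustment).

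The regulatory particle genes gave no call either. Psmc2, the ATPase, was at 131, 165 and 135 in normal samples 1, 2 and 3. It was at 132, 73.8, 118.7 and 107 after blood loss and at 181, 227, 161 and 151 after hypoxia. All hypoxia samples lay above all blood loss samples. That difference was 0.75 on the log2 scale (SE 0.26, approximate 95% interval 0.24 to 1.26), 1.68-fold, with an edgeR adjusted p of 0.0654, and it was not called. It was called under the 5 other scalings (0.84 to 1.58), with no filter, with 12 samples and with DESeq2 (0.75 to 0.76). Psmd7, the lid subunit, was at 30.5 to 49.0 in the normal group, 35.6 to 59.3 after blood loss and 27.6 to 37.4 after hypoxia, which overlapped. Against normal, Psmc2 was called higher after hypoxia under 3 other scalings (0.76 to 0.85) and lower after blood loss under the deposited size factors (-0.82) and all 14 housekeeping genes (-0.75).

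The Psmd7 to Psmc2 ratio was 0.233, 0.297 and 0.308 in normal samples. It was 0.279, 0.483, 0.5 and 0.408 after blood loss and 0.198, 0.165, 0.199 and 0.182 after hypoxia. The hypoxia samples lay below all others. The log2 difference between hypoxia and blood loss was -1.14 (exact two-sided permutation p = 0.0286, the smallest that 4 against 4 allow, 0.3 after adjustment over 21 tests). Between hypoxia and normal it was -0.58 (exact p = 0.0571, 0.3 after adjustment). The Psmd7 raw counts after blood loss were 8 to 31.

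Counted over the 10 genes, blood loss gave 1 call lower and none higher, where 17.1% of the 252 tested genes were called lower and 9.92% higher. Hypoxia gave 3 calls lower and none higher, where 32.9% were called lower and 7.54% higher, and 1 lower and 2 higher under the 3 scalings that even out the split of all tested genes. Between hypoxia and blood loss no gene of the 10 was called, where 8.33% of the tested genes were called lower and 0.397% higher. There 2 of the 10, Psmc2 and Cd1d1, had an unadjusted edgeR p under 0.05, against 25.4% of the tested genes, and DESeq2 called Psmc2. At that unadjusted threshold stood 1 of the 10 after blood loss, against 40.9%, and 4 after hypoxia, against 50.8%. Groups did not overlap for 2 genes after blood loss, both lower, against 15.9% of tested genes lower and 11.5% higher, and for 3 genes after hypoxia, all lower, against 34.1% lower and 8.73% higher. Hypoxia and blood loss did not overlap for Psmc2 alone, higher after hypoxia, against 2.78% of tested genes higher and 10.3% lower. The counts against normal are near or below these shares, and 1 gene of 10 between the treatments is too few to read. The 2 comparisons with normal share the normal samples.

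The median log2 fold change of the 10 genes was -0.28 after blood loss, beside -0.24 over all tested genes, and -0.22 after hypoxia, beside -0.49. Between hypoxia and blood loss it was -0.07, beside -0.25. Scaling moved both together: after hypoxia the median of all tested genes ran from -0.49 to 0.02 over 6 scalings. Relative to that median, 6 of the 10 genes lay above it after hypoxia under each of the 6. A library factor shifts all genes of a sample alike, so this agreement over scalings is no further support. Under the deposited size factors or all 14 housekeeping genes, Tap1 (-0.98 and -0.89) and Cd1d1 (-0.91 and -0.82) were also called lower after blood loss. Under the deposited size factors 6 of the 10 were called higher after hypoxia than after blood loss, and the median of all tested genes in that comparison was 0.60.

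**Figure D4:**
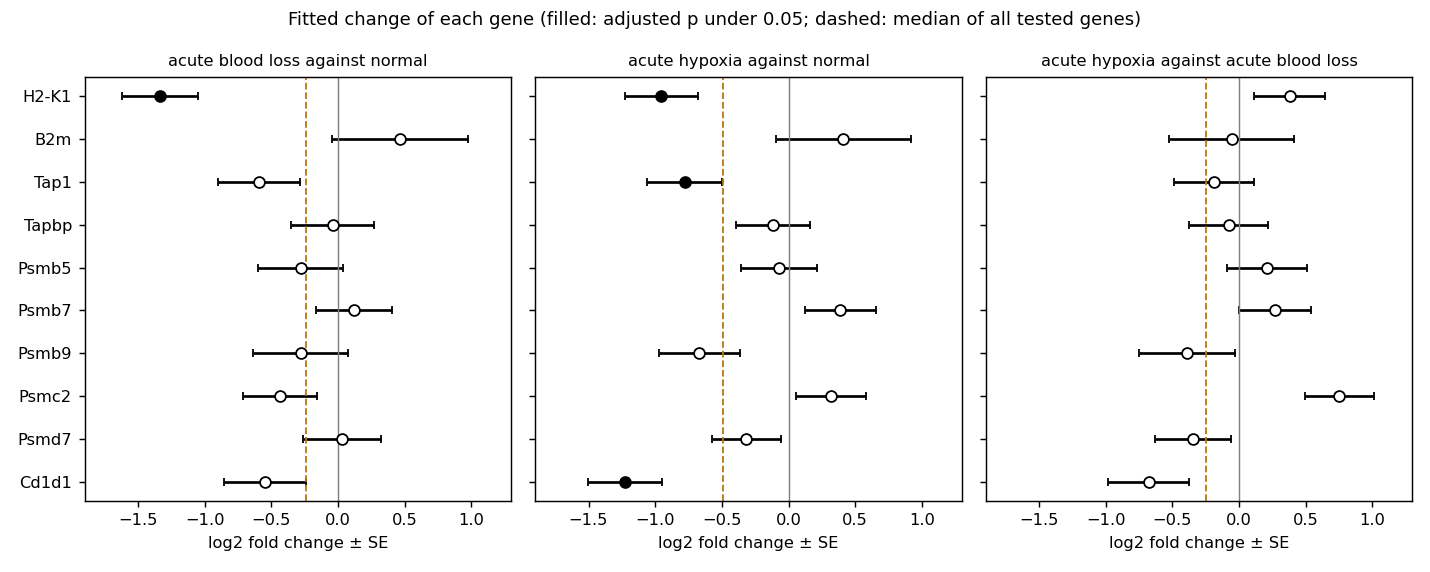
Log2 fold changes of the 10 genes (x axis) with bars of 1 SE on each side in the 3 comparisons, filled where the gene was called, with a dashed line at the median of the 252 tested genes. The filled points are H2-K1 in both comparisons with normal (-1.34 and -0.96), and Tap1 (-0.78) and Cd1d1 (-1.23) after hypoxia.

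**Figure D5:**
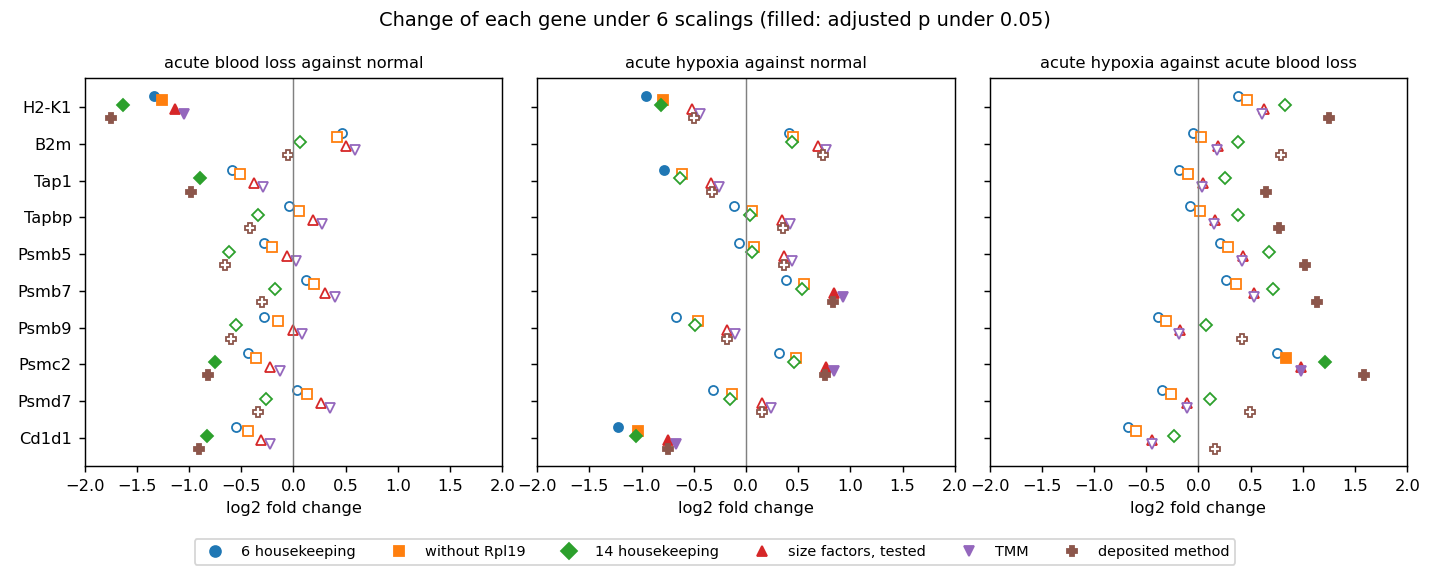
Log2 fold changes of the 10 genes (x axis) under 6 scalings (symbols) in each comparison, filled where the gene was called. H2-K1 after blood loss and Cd1d1 after hypoxia are filled under all 6, whereas Tap1 after hypoxia is filled under 1.

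Cell type marker sums are given beside these genes, and their part in the results was not tested. The summed level of 9 B cell markers was 1723 to 3381 in the normal group, 1073 to 2128 after blood loss and 1092 to 1775 after hypoxia. Both treated ranges overlapped normal, that of hypoxia only through its highest sample. The sum of 14 T and NK cell markers was 1258 to 1528, 754 to 1268 and 584 to 1074, overlapping normal after blood loss only. Of 10 tested T and NK cell markers, 6 were called lower after blood loss and 1, Cd28, higher (1.27 on the log2 scale). After hypoxia 7 of them were called lower and 0 higher. Of 8 tested B cell markers, 3 were called lower and 0 higher after blood loss, and 5 lower and 0 higher after hypoxia. Of all tested genes 17.1% were called lower and 9.92% higher after blood loss, and 32.9% and 7.54% after hypoxia. The sum of 6 macrophage markers was 122 to 191, 85.8 to 141.5 and 26.8 to 71.8, overlapping normal after blood loss only. Class I is not limited to any of the cell types listed here, and marginal zone B cells carry much Cd1d1. The sum of 5 granulocyte markers was 1760 to 2357 in the normal group, 3044 to 6994 after blood loss, above every normal sample, and 1644 to 3790 after hypoxia, which overlapped it. No gene was at 0, since the lowest raw count in the table is 1, and Kit, Cd163, Marco, Msr1, Ltf, Xcr1 and Batf3 stayed under 20 in all samples.

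Over the 11 samples, the gene whose pattern lay nearest to that of Cd1d1 was Btk, a kinase of B cell receptor signalling, at a root mean square distance of 0.216 in log2 units, followed by Syk (0.248). Nearest to H2-K1 were Socs1, an inhibitor of cytokine signalling (0.283), and Il16 (0.29). Nearest to Tap1 were Map4k2 (0.175) and H2-DMb2 (0.261), and nearest to B2m were H2-Ea-ps (0.41) and Cd83 (0.427). For the proteasome genes the nearest were Tnfrsf1b (0.315) and Map4k4 (0.334) for Psmb5, Atg16l1 (0.225) and Relb (0.252) for Psmb7, and Ube2l3 (0.236) and Cd81 (0.265) for Psmb9. They were Tollip (0.211) and Xbp1 (0.263) for Psmc2, Map4k4 (0.189) and Bax (0.242) for Psmd7, and Rela (0.269) and Traf2 (0.275) for Tapbp. Among the 10 genes, Psmb7 and Psmd7 (0.339) and Tap1 and Tapbp (0.353) lay closest, and B2m and Cd1d1 (1.18) and H2-K1 and B2m (1.16) farthest apart.

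Of 22 other class I and proteasome genes listed, 4 had values and none was tested. Psmb10, an immunoproteasome subunit, had raw counts of 4, 59 and 79 in normal samples and 1 to 10 in the shallower treated ones. Its housekeeping-scaled counts were 4.52, 18.2 and 12.8 in normal samples, 5.09 to 14.1 after blood loss and 3.42 to 6.20 after hypoxia, which overlapped. Of 16 tested interferon signalling genes, 4 fell and 2 rose after blood loss, among them Irf8 (-1.24) and Mx1 (1.27), where 17.1% and 9.92% of all tested genes did. After hypoxia 4 fell and none rose, among them Irf7 (-1.42) and Jak1 (-0.82), where 32.9% and 7.54% of all did. Between hypoxia and blood loss Irf1 (1.39 on the log2 scale) and Irf7 (-1.56) were called. Of 10 tested class II genes 4 fell and none rose after blood loss, and 5 fell and 1 rose after hypoxia, beside the same shares of all tested genes. The lists were not tested as sets.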

How the data were processed

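Ter-119 selected splenic cells of 12 samples were counted on the nCounter panel, per the labels' protocols. The authors deposited raw counts for 561 genes, and a normalized signal equal to the raw count divided by a median-of-ratios size factor (largest relative difference 1.55e-15, as computed here). The deposited log2 values are log2 of that signal plus 1. Counting software and background handling are not stated in the labels. One edgeR 4.0.16 quasi-likelihood model (R 4.3.3), holding group and nothing else, was fitted to the raw counts of 11 samples. Each library was scaled by the geometric mean of the 6 housekeeping genes whose raw counts averaged at least 100 (Rpl19, Ppia, Gapdh, Eef1g, Oaz1 and Polr2a), and these were not steady: scaled Rpl19 stood at 2286, 450 and 1022 in the normal samples. The 252 endogenous genes reaching 20 raw counts in at least 4 samples were tested, with Benjamini-Hochberg adjustment and a threshold of 0.05. Ratios used exact permutation tests. Alternatives included DESeq2 1.42.0 and other scalings. The fit was also run on counts simulated with the same library factors, which cannot test the scaling. The 10 genes and the lists were chosen with earlier results of these data known. The named genes were the 10, the 2 of nearest pattern for each and up to 4 of each list by smallest p, and a few others are named as picked after their values were seen or as markers. Normal 4 was left out of the main fit because its values derive from the other normal samples. Some genes of the lists are not reported here by name.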

Additional observations from a re-analysis of the deposited data

Results flagged for a closer look

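Of 34 groups of 4 samples examined for a sample far from the others, 2 held one, and chance gives about 1 in 20. Psmb7 in blood loss 3 was at 140.9, where the other 3 samples lay between 81.5 and 91.6. Its raw count there was 19, in the shallowest library, with a total of 7016. Cd1d1 in blood loss 1 was at 30.8, where the others lay between 50.6 and 51.9, and its raw count was 10.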

How the results depend on the processing

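Settings are named with their values in the order blood loss against normal, hypoxia against normal and hypoxia against blood loss, where a setting moved the value.

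Of the 10 genes, lower calls after blood loss were 4 under the deposited factors, 4 under all 14 housekeeping genes and 0 with normal 1 alone. After hypoxia, 2 were higher and 1 lower under TMM, size factors of the tested genes and the deposited factors, and 0 lower with normal 1 alone. Against blood loss, hypoxia gave 6 higher calls with the deposited factors and 1 with TMM, tested-gene factors, all 14 housekeeping genes, without Rpl19, no filter, 12 samples and DESeq2. Over all tested genes, calls after blood loss were 127 (deposited factors), 247 (no filter), 106 (12 samples) and 20 (normal 1 alone). After hypoxia they were 196 (no filter), 166 (12 samples), 61 (thinned) and 22 (normal 1 alone), and their split into higher and lower was 55 and 44 (TMM), 49 and 51 (tested-gene factors) and 51 and 50 (deposited factors), against 19 and 83. Between the treatments they were 97 (deposited factors), 6 (14 housekeeping genes, and background subtracted), 235 (no filter), 43 (12 samples), 12 (thinned) and 35 (DESeq2). With each sample left out in turn, the genes of the 10 called were 0 to 1 higher and 1 to 2 lower after blood loss, 0 to 1 higher and 1 to 4 lower after hypoxia, and 0 to 1 higher between treatments. Over all tested genes the calls after blood loss were 38 to 88, those between treatments 6 to 40, and those after hypoxia 60 at the lowest and, without normal 1, 19 higher plus 100 lower at the highest.

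Signs of uncalled values turned as follows. After blood loss: B2m -0.056 (deposited) and -0.56 (normal 1 alone); Tapbp 0.27 (TMM, and normal 1 alone), 0.18 (tested-gene factors), 0.049 (without Rpl19) and 0.012 (replicate block); Psmb5 0.022 (TMM) and 0.0060 (thinned); Psmb7 -0.30 (deposited) and -0.17 (14 housekeeping genes); Psmb9 0.083 (TMM) and 0.53 (normal 1 alone); Psmd7 -0.34 (deposited), -0.26 (14 housekeeping genes), -0.030 (12 samples) and -0.14 (background subtracted); Cd1d1 0.18 (normal 1 alone). After hypoxia: B2m -0.61 (normal 1 alone); Tapbp 0.42, 0.35, 0.35, 0.038, 0.061 (the 5 other scalings) and 0.19 (normal 1 alone); Psmb5 0.44, 0.36, 0.37, 0.057, 0.080 (the 5 scalings) and 0.32 (thinned); Psmb9 0.15 (normal 1 alone); Psmd7 0.24, 0.16, 0.16 (TMM, tested-gene and deposited factors) and 0.11 (normal 1 alone). Hypoxia against blood loss: B2m 0.18, 0.19, 0.80, 0.38 and 0.028 (the 5 scalings); Tap1 0.038, 0.047, 0.65 and 0.26 (4 scalings); Tapbp 0.15, 0.16, 0.77, 0.38, 0.013 and, background subtracted, 0.055; Psmb9 0.42 and 0.068, and Psmd7 0.49 and 0.11 (deposited factors and 14 housekeeping genes); Cd1d1 0.16 (deposited). With the background subtracted, Psmb9 to Psmb5 turned to -0.19 and Psmb9 to Tap1 to -0.055 after blood loss, and Psmb9 to Tap1 to 0.25 between treatments. Leaving out 1 sample, Psmb9 to Psmb5 after blood loss ranged over -0.37 to 0.41 and Psmb9 to Tap1 between treatments over -0.29 to 0.19. Uncalled fold changes also turned after blood loss for Tapbp (-0.30 to 0.19), Psmb7 (-0.029 to 0.22), Psmb9 (-0.48 to 0.047) and Psmd7 (-0.11 to 0.19). After hypoxia they turned for B2m (-0.039 to 1.45), Tapbp (-0.23 to 0.020) and Psmb5 (-0.21 to 0.063). Between treatments they turned for B2m (-0.15 to 0.051) and Tapbp (-0.30 to 0.18). The causes were not tested.

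Same-numbered samples had correlations of deviations of -0.244 to 0.125, and different-numbered samples of -0.173 to 0.172. So few samples cannot settle whether the replicate numbers pair them. With the replicate block the calls over all tested genes were 64, 104 and 17, and no call of the 10 genes changed. Blood loss libraries held 7016 to 31006 counts, and the widest intervals were those of B2m against the 3 normal samples. With normal 1 alone, the lone sample is assumed to vary like the other groups.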
